A study of Rattus norvegicus with 9 samples.

Results

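RBL-2H3 is a rat basophilic leukemia cell line that is widely used as a model of mast cells. The transcriptome described here is that of its control cells, the 3 samples labelled Ctrl among the 9 samples of the series, which also holds 3 samples labelled DNP and 3 labelled PF. The Ctrl samples were chosen by that label alone, and no other group was compared with them. The cells were grown in Dulbecco's modified Eagle medium with 10% fetal bovine serum at 37 °C and 5% CO2. Their treatment label reads untreated, but a protocol text shared by all 9 samples describes a sensitization of 12 h with anti-DNP IgE at 50 ng/mL and a stimulation of 4 h with the antigen DNP-HSA at 100 ng/mL, so whether the Ctrl cells received IgE is not settled. The labels give no genotype or clone and do not say whether the 3 samples came from separate cultures, so the spread between them may be technical.

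Mast cells and basophils carry the high-affinity IgE receptor, which is built of an alpha chain (Fcer1a), a beta chain (Ms4a2) and a pair of gamma chains (Fcer1g). When antigen crosslinks receptor-bound IgE, the kinases Lyn and Syk pass the signal on, calcium enters, and secretory granules fuse with the cell surface. The granules hold histamine and serotonin bound to the proteoglycan serglycin, together with proteases of the chymase, tryptase and carboxypeptidase families. Activated mast cells also make prostaglandins and leukotrienes from arachidonic acid and secrete cytokines.

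Gene levels were read as FPKM, since the deposited values carry no named unit. FPKM gives the fragments assigned to a gene relative to the gene's length and to all mapped fragments. On that reading, levels of different genes can be set side by side. Each sample listed 38490 genes, of which 18006 had a value, nearly all of them of the type mRNA (18005). Genes of this type are called protein-coding below, although the RefSeq annotation names some of them as pseudogenes. The values summed to 580702 FPKM in Ctrl replicate 1, 591539 in replicate 2 and 584498 in replicate 3. FPKM does not keep the number of reads, so counting error is not stated, and the errors below are the SD of the 3 samples. A gene was called present at a mean of at least 1 FPKM, which 10332 genes reached. At higher levels, 6314 genes had a mean of at least 10 FPKM, 918 of at least 100 FPKM and 99 of at least 1000 FPKM. A further 1523 genes were listed at 0 in all 3 samples.

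The control transcriptome was led by the machinery of protein synthesis. The gene with the highest level was Eef1a1, the elongation factor that brings aminoacyl-tRNA to the ribosome, at 5865, 5890 and 6013 FPKM in replicates 1 to 3 (mean 5923 ± 79.1, SD, n = 3). It was followed by Rps12 at 5303, 5602 and 5222 FPKM, Rpsa at 4879 ± 269 FPKM, Rps2 at 4326 ± 296 FPKM and Rplp0 at 4236 ± 265 FPKM, all proteins of the cytosolic ribosome. Of the 20 genes with the highest means, 16 encoded ribosomal proteins. The other members of the 20 were Eef1a1, the glycolytic enzyme Gapdh, the intermediate filament protein Vim and Srgn, the core protein of serglycin.

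As a family, the 88 ribosomal protein genes with a value held 25.1%, 25.4% and 24.1% of the summed FPKM in the 3 samples (mean 24.9% ± 0.668), and 85 of them had a mean of at least 1 FPKM, as did 57.4% of all genes with a value. Translation initiation and elongation factors added 3.06% ± 0.0289. Nuclear-encoded subunits of the respiratory chain held 2.28% ± 0.0452, heat shock proteins and chaperonins 1.53% ± 0.0354, tubulins, actins and thymosins 1.42% ± 0.0119, and enzymes of glycolysis 1.30% ± 0.0319. All 40 proteasome subunits with a value were present and together held 0.909% ± 0.0112. Of the cyclins, cyclin-dependent kinases and replication genes with a value, 41 of 47 were present against the same 57.4%, among them Cdk4 at 192 ± 16.3 FPKM, Pcna, the sliding clamp of DNA replication, at 153 ± 4.78 FPKM, and Top2a, the topoisomerase of dividing cells, at 112 ± 4.29 FPKM.

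The summed expression was spread over few genes at the top and many below. The 10 highest genes held 7.14% ± 0.200 of the summed FPKM and the 100 highest 33.4% ± 0.541. The 59 highest genes made up 25% of the sum, the 302 highest 50%, the 1544 highest 75% and the 3837 highest 90%.

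**Figure D1:**
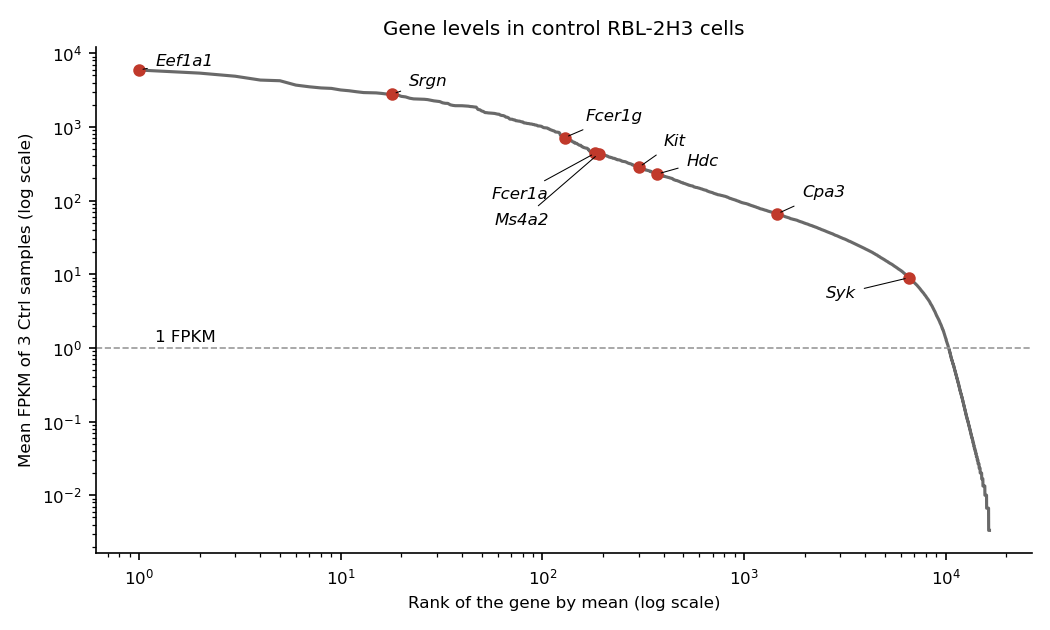
Mean FPKM of the 3 Ctrl samples (vertical axis, log scale) for each gene by its rank (horizontal axis, log scale). Points mark named genes, and the dashed line marks 1 FPKM. The 3 chains of the IgE receptor, Kit and Hdc lie at ranks 129 to 371, Cpa3 lies at rank 1457 and Syk at rank 6595.

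A start of transcription within a run of pyrimidines is a known feature of ribosomal protein genes. Near-start sequences of RefSeq (build GRCr8) were found for 67 of the 88 ribosomal protein genes, and 21 of these (31.3%) had a C at the annotated start followed by 4 bases that are each C or T on the transcript strand, against 2.63% of all 27457 promoters of the table and 2.74% of those of the genes with a mean of at least 1 FPKM. The 5 most abundant ribosomal protein genes with these letters are shown from 10 bases before the start. Capitals mark the unbroken C or T letters from the annotated start onward. In each gene the base before the start is also C or T, so the run is longer than the capitals.
Rplp0 (chr12:46718376-46718400, minus strand): caccgcacttCTCTCgccaggcgtc
Rps15 (chr7:10068101-10068125, minus strand): acaccgcttcCTTTTCCCagcagcc
Rps3a (chr2:173827028-173827052, minus strand): gtacttccgcCCTTTTggctctcag
Rpl35 (chr3:43165907-43165931, minus strand): cttcctctttCTCTCgaaccgggcg
Rpl19 (chr10:83519054-83519078, plus strand): ccagcaagctCTTTCCTTTCgctgc
Of the 38 genes outside the ribosomal proteins among the 100 highest, 30 had a sequence and 1 of these had the letters. A match is a description of the annotated start and not a mapped start in these cells.

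Outside ribosomal proteins and translation factors, the 20 highest genes combined general cell functions with genes of signalling and secretion. Gapdh (3099 ± 199 FPKM), Vim (2790 ± 54.3 FPKM) and Srgn (2780 ± 79.6 FPKM) led this group. They were followed by Tpt1, a growth-related calcium-binding protein, at 2209 ± 12.0 FPKM, the cytoskeletal gene Actb at 2127 ± 46.2 FPKM, and Ftl1, the light chain of the iron store ferritin, at 2093 ± 134 FPKM. Rgs2 was measured at 2016, 2159 and 2084 FPKM and Rgs1 at 1851, 1893 and 1992 FPKM in replicates 1 to 3. Both proteins speed the hydrolysis of GTP by G alpha subunits. Gadd45a, a gene of the growth arrest and DNA damage response, was found at 1921, 1877 and 1877 FPKM. Further members were the actin-binding peptide Tmsb4x, the peptidyl-prolyl isomerase Ppia, the chaperones Hsp90ab1, Calr and Hspa8, the poly(A)-binding protein Pabpc1, the ribosome scaffold Rack1, the polyubiquitin gene Ubb and Naca, which binds nascent chains. The group was completed by LOC100360522 at 1996 ± 9.16 FPKM and by LOC100362684, which RefSeq names Rps20-ps11, at 1538 ± 509 FPKM.

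Mast cell genes were described by 10 lists covering receptors, signalling, granule contents, mediator synthesis, secretion and transcription factors. Of their 234 distinct members, 170 (72.6%) had a mean of at least 1 FPKM, against 44.4% of all 23267 protein-coding genes listed, and 41 had a mean of at least 100 FPKM, a level that 3.95% of all protein-coding genes reached. The members of these and the later lists were chosen with earlier results of these data known. A high share present may be set in part by that choice and is no independent evidence of cell identity. A further 21 members were listed without a value. Such a gene was not counted as present, but a missing value is not a measured 0. In RNA from whole cultures, a low level can come from few cells or from little RNA per cell, and these cannot be told apart.

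All 3 chains of the IgE receptor were abundant and nearly equal between samples. Fcer1g, the signalling gamma chain, was measured at 702, 729 and 717 FPKM in replicates 1 to 3 (mean 716 ± 13.5). Fcer1a, the chain that binds IgE, was measured at 454, 439 and 432 FPKM (mean 442 ± 11.4). Ms4a2, the beta chain that amplifies the signal, was measured at 442, 417 and 435 FPKM (mean 431 ± 12.6). Within a sample the level of Fcer1a was 1.02 ± 0.0290 times that of Ms4a2, so their ranges overlapped, whereas the level of Fcer1g was 1.62 ± 0.0660 times that of Fcer1a and was the higher of both in each sample. The receptors for IgG were less abundant. The inhibitory receptor Fcgr2b was found at 175, 180 and 171 FPKM. Fcgr2a was found at 39.5, 42.6 and 60.4 FPKM, with replicate 3 above the other two, and stands among closely similar Fc receptor genes, between which reads can be split. Fcgr3a (0.250 FPKM), Fcgr1a (0.0533 FPKM) and the low-affinity IgE receptor Fcer2 (0.010 FPKM) had means below 1 FPKM.

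Among growth factor and cytokine receptors, 15 of 20 members (75%) were present, against 44.4% of all protein-coding genes. Those present had a median of 33.6 FPKM. Csf2rb, the beta chain shared by the receptors of interleukin-3, interleukin-5 and GM-CSF, was measured at 343, 341 and 340 FPKM. Kit, the receptor of stem cell factor on which mast cells depend, was measured at 289, 274 and 286 FPKM (mean 283 ± 8.11). Both were high in each sample, with replicate 2 lowest for Kit and replicate 3 lowest for Csf2rb by small margins. The interleukin-33 receptor Il1rl1 followed at 137 ± 8.31 FPKM, and the common gamma chain Il2rg, Ifngr1, Il4r, Il18r1 and the interleukin-3 receptor alpha chain Il3ra lay between 33.6 and 45.4 FPKM. The alpha chain of the GM-CSF receptor, Csf2ra, was near the limit at 0.840, 1.42 and 1.35 FPKM. Il13ra1 (0.143 FPKM), Il5ra (0.137 FPKM) and Il7r (0.0267 FPKM) were below it, Tnfrsf1a was listed at 0 and Tlr2 without a value, while the endotoxin receptor Tlr4 was found at 2.51 ± 0.0416 FPKM.

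Of the genes that carry the signal of the IgE receptor, 27 of 30 (90%) were present, against 44.4% of all protein-coding genes. The median of those present was 42.8 FPKM, with adaptors, a phosphatase and the kinase Btk highest. The adaptor Lcp2 was highest at 230, 227 and 238 FPKM. It was followed by the phosphatase Ptpn6 at 159 ± 9.23 FPKM, the adaptors Lat2 at 149 ± 2.75 FPKM and Lat at 112 ± 9.55 FPKM, and the kinase Btk at 144 ± 4.58 FPKM. The adaptors Grap2 (89.3 ± 4.82 FPKM) and Grb2 (73.8 ± 1.76 FPKM) and the Ras activator Rasgrp4 (89.2 ± 1.34 FPKM) completed the 8 highest members. Lyn, the kinase that starts the cascade, was measured at 45.2, 41.0 and 42.3 FPKM. Syk, which is recruited to the gamma chain, was measured at 9.0, 9.81 and 8.17 FPKM. Syk was thus low for the list, and the level of Lyn was 4.79 ± 0.535 times and that of Btk 16.1 ± 1.99 times that of Syk within a sample.

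Related signalling genes stood at different levels. Plcg2 and Plcg1 encode phospholipases C gamma, which release the calcium messenger, and the level of Plcg2 (26.7 ± 0.436 FPKM) was 11.1, 14.4 and 10.4 times that of Plcg1 (2.27 ± 0.358 FPKM) in replicates 1 to 3. Rasgrp4 stood at 89.2 FPKM and its relative Rasgrp1 at 0.0600 FPKM. Fyn, a Src family kinase described in mast cells beside Lyn, had a mean of 0.0267 FPKM. The calcium channel Orai1 and its sensor Stim1 were both present, at 54.6 ± 4.97 and 51.9 ± 2.55 FPKM. Of the receptors that couple to G proteins, 13 of 25 (52%) were present, near the 44.4% of all protein-coding genes, with a median of 8.25 FPKM among these. The chemokine receptor Cxcr4 was highest at 95.3, 89.6 and 87.3 FPKM, followed by the nucleotide-sugar receptor P2ry14 at 65.8 ± 2.55 FPKM, the orphan Gpr171 at 32.7 ± 2.12 FPKM and the adenosine receptor Adora2a at 12.7 ± 0.432 FPKM. The leukotriene receptor Cysltr1 (9.46 ± 0.362 FPKM), the adenosine receptor Adora3 (8.49 ± 0.764 FPKM), the prostaglandin receptor Ptger4 (8.25 ± 0.570 FPKM) and the histamine receptor Hrh4 (7.84 ± 0.971 FPKM) lay below 10 FPKM. The receptors of basic secretagogues and complement were low, with Mrgprb3 at 0.0600 FPKM, Mrgprx2 at 0.0567 FPKM, C3ar1 at 0.170 FPKM and C5ar1 at 0.0667 FPKM. Ptger2, Ptger3, Ptgdr2 and Ccr3 also had means between 0.0167 and 0.283 FPKM, and Hrh1, Hrh2, Ccr1 and Mrgprx3 were listed without a value.

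Of the granule proteases, 12 of 25 (48%) were present, near the 44.4% of all protein-coding genes, and 1 of these was above 100 FPKM. Mcpt2, a chymase of mucosal mast cells, was measured at 198, 202 and 199 FPKM. Cpa3, the carboxypeptidase of mast cell granules, was measured at 69.6, 66.2 and 62.0 FPKM (mean 66.0 ± 3.81), and the level of Mcpt2 was 3.03 ± 0.180 times that of Cpa3 within a sample. The chymase Cma1 (20.6 ± 1.11 FPKM), Mcpt8l2 (19.4 ± 2.82 FPKM), granzyme B (Gzmb, 19.1 ± 0.981 FPKM) and Mcpt8 (18.6 ± 2.02 FPKM) formed a second tier whose sample values overlapped. Mcpt8 was also listed as a basophil marker. Mcpt1 was found at 10.4, 11.0 and 6.39 FPKM and Mcpt10 at 7.11, 5.41 and 1.5 FPKM, both lowest in replicate 3. Mcpt8l3, Mcpt3, Mcpt1l4 and Mcpt1l3 lay between 1.04 and 7.16 FPKM. The Mcpt1-like and Mcpt8-like genes include close copies, between which reads can be split, so single levels among them are uncertain. Below 1 FPKM were Mcpt4 (0.840 FPKM), Mcpt1l1 (0.607 FPKM), Mcpt9 (0.137 FPKM), cathepsin G (Ctsg, 0.117 FPKM) and Gzmc (0.0267 FPKM). The tryptases Tpsab1, Tpsb2 and Tpsg1, the proteases Prss34 and Prss29, Mcpt4l1, Gzma and Gzmf were listed without a value.

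The genes that make and store the granule amines were high. Srgn was measured at 2827, 2688 and 2826 FPKM and ranked 18th among all genes. Tph1, which starts serotonin synthesis, was measured at 353, 346 and 324 FPKM (mean 341 ± 15.1). Hdc, which makes histamine, was measured at 230, 238 and 219 FPKM (mean 229 ± 9.34), so that Tph1 was the higher of the pair in each sample, by 1.49 ± 0.0418 times. The vesicular amine transporter Slc18a2 (122 ± 3.64 FPKM) and the decarboxylase Ddc (66.5 ± 2.17 FPKM), which completes serotonin synthesis, were present too. The plasma membrane serotonin transporter Slc6a4 had a mean of 0.147 FPKM, and the degrading enzyme Maoa was listed without a value. Among enzymes that build the sugar chains of serglycin, Chst12 (59.1 ± 0.703 FPKM) and Xylt1 (56.0 ± 3.39 FPKM) led, with Ext1 next at 15.3 ± 0.925 FPKM. Ndst2, the sulfotransferase of mast cell heparin, stood at 14.3 ± 1.14 FPKM, and Ndst1 had a mean of 0.0733 FPKM. Chst11 (0.980 FPKM) and Chst15 (0.0133 FPKM) were also below 1 FPKM.

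Of the lysosomal and granule membrane genes, 18 of 24 (75%) were present, against 44.4% of all protein-coding genes (median of those present 137 FPKM). A mean of at least 100 FPKM was reached by 11 of them and by 3.95% of all protein-coding genes. Ctsd, an aspartic protease, was highest at 846, 845 and 834 FPKM, followed by the granule tetraspanin Cd63 at 513, 544 and 507 FPKM. Lamp1, Cd81, Lamp2 and Itm2b, membrane proteins of the lysosome or cell surface, lay between 175 and 227 FPKM. Hexa, a subunit of the beta-hexosaminidase whose release serves as the degranulation readout in these cells, was found at 90.7 ± 1.97 FPKM. The cysteine proteases Ctss (0.0800 FPKM) and Ctsl (0.0667 FPKM) and the tetraspanin Cd9 (0.0667 FPKM) were below 1 FPKM, and Ctsh, Lgmn and Hpse were listed at 0, in contrast to Ctsc at 113 ± 7.41 FPKM and Ctsb at 50.9 ± 0.824 FPKM.

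Of the genes that make lipid mediators from arachidonic acid, 12 of 18 (66.7%) were present, against 44.4% of all protein-coding genes. Ptgs2, the inducible cyclooxygenase, was measured at 609, 555 and 529 FPKM. This was 29.2, 26.4 and 24.3 times the level of the constitutive Ptgs1 (21.2 ± 0.509 FPKM) in the same samples. Alox5ap (435 ± 6.71 FPKM) and Alox5 (338 ± 3.76 FPKM), which together start leukotriene synthesis, stood at a ratio of 1.29 ± 0.00927. Hpgds, which makes prostaglandin D2, was found at 211, 204 and 185 FPKM, the prostaglandin E synthase Ptges3 at 319 ± 9.74 FPKM and the phospholipase Pla2g4a, which frees arachidonic acid, at 85.9 ± 6.43 FPKM. Lta4h (34.7 ± 0.712 FPKM), which leads to leukotriene B4, was present, and Ltc4s, which leads to the cysteinyl leukotrienes, was measured at 0.180, 1.29 and 1.01 FPKM, on both sides of the limit. Mgst2, an enzyme with the same activity, stood at 8.55 ± 1.81 FPKM. Tbxas1 (0.160 FPKM) and Pla2g7 (0.207 FPKM) were below 1 FPKM, and Ptgds, Ptges and Dagla were listed without a value.

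Of the genes for granule docking and fusion, 24 of 27 (88.9%) were present (median 25.9 FPKM), against 44.4% of all protein-coding genes. The vesicle SNARE Vamp2 (104 ± 1.02 FPKM) and the granule GTPases Rab27b (103 ± 8.70 FPKM) and Rab27a (93.1 ± 2.47 FPKM) were highest. Rab27b was measured at 112, 99.3 and 96.1 FPKM and Rab27a at 91.4, 91.9 and 95.9 FPKM, nearly equal in replicate 3. The target SNAREs Snap23 (46.1 ± 2.19 FPKM) and Stx4 (28.3 ± 0.810 FPKM), the vesicle SNARE Vamp8 (48.7 ± 2.40 FPKM), the fusion regulator Stxbp2 (53.9 ± 2.40 FPKM) and the priming factor Unc13d (43.3 ± 2.50 FPKM) were all in the middle range, as were Nsf and Napa, which take SNARE complexes apart. Doc2a (0.607 FPKM) and the calcium sensor Syt2 (0.0367 FPKM) were below 1 FPKM, and Syt9 was listed without a value.

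**Figure D2:**
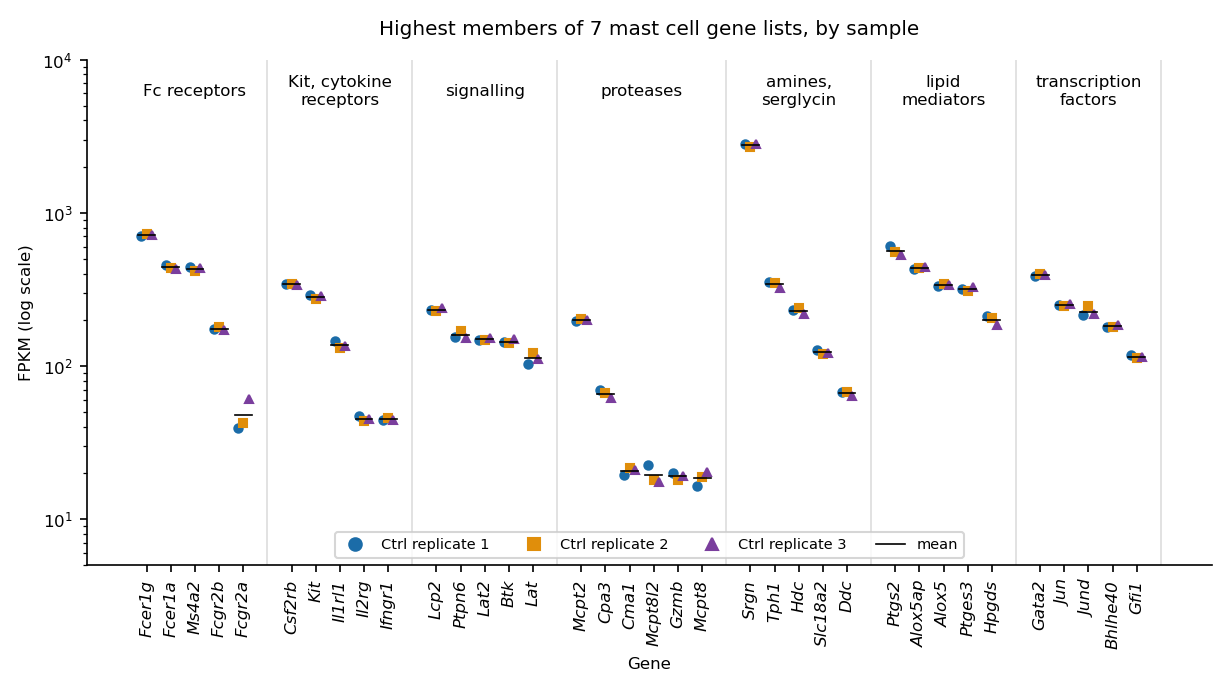
FPKM (vertical axis, log scale) in each Ctrl replicate for the highest members of 7 mast cell gene lists, with a bar at the mean. The 3 replicates nearly coincide for most genes, and Fcgr2a shows replicate 3 (60.4 FPKM) above replicates 1 and 2 (39.5 and 42.6 FPKM).

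Transcription factors of the mast cell and related lineages were present in 30 of 38 cases (78.9%, median 41.4 FPKM), against 44.4% of all protein-coding genes. Gata2, a factor that mast cells require, was highest at 386, 396 and 390 FPKM (mean 391 ± 5.05). The AP-1 members Jun (251 ± 3.74 FPKM) and Jund (226 ± 16.5 FPKM) and Bhlhe40 (181 ± 3.71 FPKM) followed. Gfi1 (115 ± 2.80 FPKM), Fli1 (102 ± 2.87 FPKM), Spi1 (79.8 ± 3.84 FPKM) and Junb (78.5 ± 9.17 FPKM) completed the 8 highest. The level of Gata2 was 6.61 ± 0.304 times that of Gata1 (59.3 ± 3.22 FPKM), and Gata3 stood at 43.6 ± 1.94 FPKM. Mitf, a master regulator of mast cells, was measured at 17.6, 15.7 and 17.2 FPKM. The immediate early genes Fos (13.1, 15.1 and 10.8 FPKM) and Egr1 (3.59, 4.00 and 3.35 FPKM), on which the study centred, were low beside Jun. Cebpb (0.287 FPKM), Erg (0.0633 FPKM), Cebpa (0.0167 FPKM) and Hes1 (0.0167 FPKM) were below 1 FPKM, and Tfeb, Cebpe and Irf8 were listed without a value.

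GATA factors bind the letters GATA in the promoters of mast cell genes, and the letters GATAA were therefore searched on both strands in the 250 bases before the RefSeq start (GRCr8) of the 6 mast cell markers Fcer1a, Ms4a2, Fcer1g, Kit, Hdc and Cpa3. Ms4a2 and Fcer1g had no entry in the table. Fcer1a and Cpa3 had 1 match each, beginning 93 and 54 bases before the start, and Kit and Hdc had none in this window. The letters were also found in 23.2% of all promoters of the table and in 15.1% of those of genes with a mean of at least 1 FPKM. Among the mast cell list members present, 20 of 132 with a sequence had them (15.2%), near the 15.1% of genes with a mean of at least 1 FPKM. Among the granule protease, amine and proteoglycan, and Fc receptor members of these, 9 of 24 had them (37.5%). This group pools only some of the mast cell lists and holds related protease genes of the Mcpt family. Its difference from the other shares was not tested. The sequences that hold a match are shown with the match in capitals.
Fcer1a (chr13:88224680-88224929, minus strand): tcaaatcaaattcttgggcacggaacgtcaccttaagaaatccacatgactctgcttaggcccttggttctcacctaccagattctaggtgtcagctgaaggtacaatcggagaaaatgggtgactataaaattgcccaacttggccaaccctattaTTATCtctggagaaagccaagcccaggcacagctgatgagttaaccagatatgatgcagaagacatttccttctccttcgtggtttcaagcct
Cpa3 (chr2:104673238-104673487, minus strand): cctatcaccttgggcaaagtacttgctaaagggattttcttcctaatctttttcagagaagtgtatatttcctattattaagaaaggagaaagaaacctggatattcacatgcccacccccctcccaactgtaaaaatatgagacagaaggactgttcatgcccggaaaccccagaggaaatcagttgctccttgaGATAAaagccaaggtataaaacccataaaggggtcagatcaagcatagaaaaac

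Of the cytokines and chemokines, 15 of 38 (39.5%) were present, near the 44.4% of all protein-coding genes. Mif was highest at 408, 458 and 387 FPKM. Csf1, the growth factor of macrophages, followed at 324 ± 15.8 FPKM, and the monocyte chemokine Ccl2 was measured at 218, 242 and 212 FPKM. Tgfb1 (187 ± 8.41 FPKM), Il18 (173 ± 4.32 FPKM), Osm (119 ± 6.35 FPKM), Lif (112 ± 9.35 FPKM) and Vegfa (32.3 ± 1.79 FPKM) made up the rest of the 8 highest. The cytokines for which activated mast cells are best known were lower, with Tnf at 7.63, 6.15 and 5.32 FPKM. Il3 was found at 4.18 ± 0.285 FPKM, Il13 at 4.16 ± 0.364 FPKM and Il4 at 2.33 ± 0.118 FPKM. Il6 had a mean of 0.0467 FPKM, Il9 was found at 0.130, 0.630 and 0 FPKM, and 9 members, among them Il1b, Csf2, Ccl3 and Ccl4, were listed at 0 in all 3 samples.

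Markers of basophils were present in 9 of 14 cases (64.3%), against 44.4% of all protein-coding genes. Of the 14 members, 7 also stood on the mast cell lists. The highest were Osm, Il18r1 (36.1 ± 2.85 FPKM) and Il3ra (33.6 ± 2.07 FPKM), followed by Cd200r1 (24.9 ± 2.26 FPKM), Mcpt8 and Itga2b (11.1 ± 0.787 FPKM). Enpp3, an ectoenzyme used as a surface marker of activated basophils, stood at 2.32 ± 0.210 FPKM, Cd200r1l at 1.49 ± 0.238 FPKM and Itga2 at 1.39 ± 0.0520 FPKM. Cd69 (0.370 FPKM), Ptgdr2 (0.130 FPKM), the eotaxin receptor Ccr3 (0.0167 FPKM) and Cebpa (0.0167 FPKM) were below 1 FPKM, and the basophil protease Prss34 was listed without a value.

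The tissue label of these samples reads peripheral blood, whereas the source is a cell line, so markers of other cell types were read as well. Of 113 distinct members of 11 such lists, 24 (21.2%) had a mean of at least 1 FPKM, against 44.4% of all protein-coding genes, 27 were listed without a value and 12 at 0. In several lists 1 gene held most of the sum while defining markers were near 0. B cell markers summed to 175, 189 and 167 FPKM in replicates 1 to 3, of which Cd22, an inhibitory lectin, held 174, 188 and 166 FPKM. It was the 1 member of 9 that was present, Pax5 was listed at 0 and Ms4a1 without a value. NK cell markers summed to 529, 565 and 546 FPKM, of which the granule membrane protein Nkg7 held 522, 559 and 540 FPKM. Of the 8 NK cell members, 4 (50%) were present, near the 44.4% of all protein-coding genes. Besides Nkg7 these were Klrk1, Eomes and Ncr1, which lay between 1.17 and 3.10 FPKM. Perforin (Prf1) had a mean of 0.0333 FPKM. Fibroblast markers summed to 326, 359 and 333 FPKM, nearly all of it Thy1, a surface glycoprotein (326, 358 and 333 FPKM), while Col1a1 had a mean of 0.0133 FPKM and Dcn was listed at 0.

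Markers of megakaryocytes were present in 5 of 10 cases (50%), near the 44.4% of all protein-coding genes, and summed to 755, 841 and 807 FPKM. Pf4, a platelet chemokine, was measured at 660, 747 and 718 FPKM, and the integrin chain Itgb3 (55.7 ± 1.68 FPKM), the chemokine precursor Ppbp (22 ± 1.8 FPKM), Itga2b and Gp1ba (3.04 ± 0.350 FPKM) were present too. Gp9 (0.207 FPKM), Gp6 (0.0133 FPKM) and Vwf (0.010 FPKM) were below 1 FPKM. Macrophage markers were present in 5 of 17 cases (29.4%), below the 44.4% of all protein-coding genes. They summed to 95.4, 91.9 and 87.9 FPKM, led by the integrins Itgax (62.5 ± 2.78 FPKM) and Itgam (24 ± 0.767 FPKM). Cd68 (1.57 FPKM), Cx3cr1 (1.37 FPKM) and Msr1 (1.2 FPKM) were also present, while Csf1r (0.407 FPKM), Adgre1 (0.0400 FPKM) and Lyz2 (0.0200 FPKM) were below 1 FPKM and Mrc1 was listed at 0. Erythroid markers summed to 126, 120 and 121 FPKM, of which the transferrin receptor Tfrc held 107 ± 1.96 FPKM. The erythropoietin receptor Epor was found at 13.6 ± 1.23 FPKM and Klf1 at 1.09 ± 0.212 FPKM, whereas the hemoglobin genes Hba1, Hbb and Hbb-b1 had means of 0.283, 0.117 and 0.10 FPKM, and Alas2 was listed at 0.

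The T cell markers summed to 9.40, 10.1 and 11.5 FPKM, and 2 of 13 (15.4%) were present, against 44.4% of all protein-coding genes. Those present were Cd3e (7.41 ± 1.08 FPKM) and Lck (1.56 ± 0.218 FPKM). Cd3g had a mean of 0.210 FPKM and Cd3d of 0.0367 FPKM, and Zap70 and Cd8b were listed at 0. None of the 13 neutrophil markers reached 1 FPKM, 8 of them being listed without a value, and their sum was 1.03, 0.940 and 1.25 FPKM with Csf3r highest (0.407 FPKM). Of the 8 eosinophil markers, the lipoxygenase Alox15 was present at 8.48 ± 0.411 FPKM, Epx was listed at 0 and the list summed to 8.57, 8.25 and 9.09 FPKM. None of the 8 epithelial markers was present, with Krt8 highest at 0.887 ± 0.191 FPKM, a sum of 0.880, 1.15 and 0.810 FPKM, and Epcam at 0.0333 FPKM. Endothelial markers summed to 66.6, 69.4 and 70.2 FPKM, of which Pecam1, an adhesion molecule also carried by leukocytes, held 60.5 ± 1.60 FPKM and Tek 7.78 ± 0.299 FPKM. Kdr had a mean of 0.010 FPKM and Cdh5 was listed without a value.

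**Figure D3:**
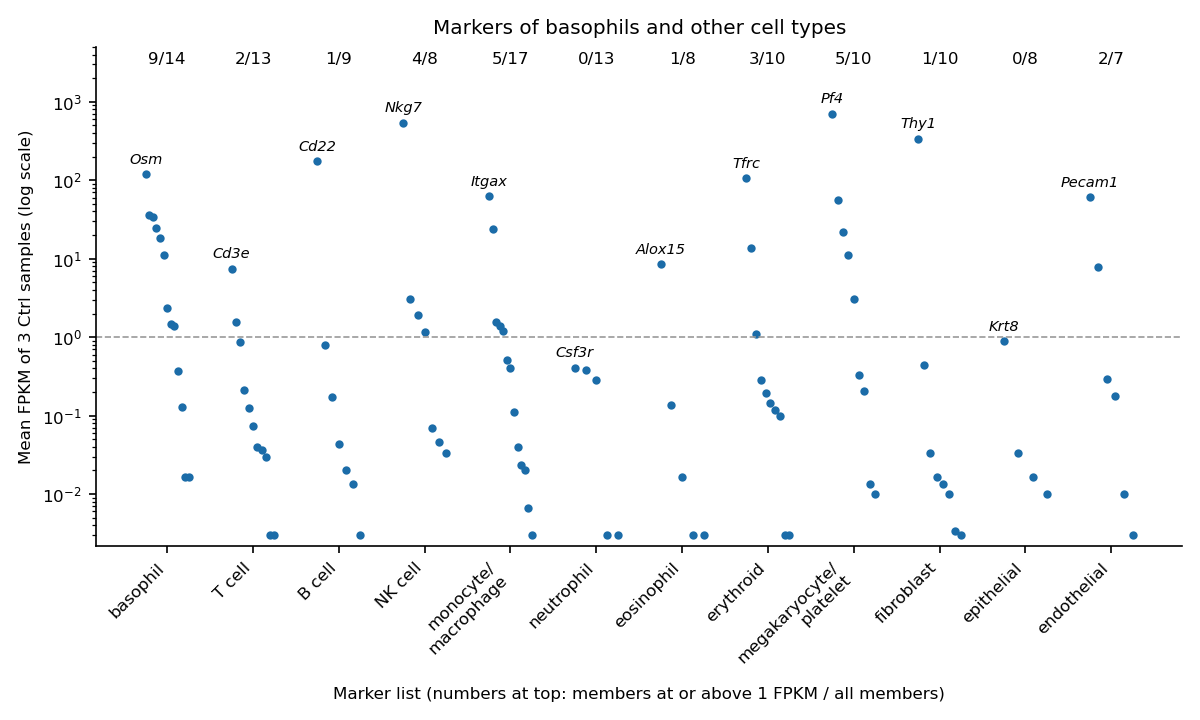
Mean FPKM of the 3 Ctrl samples (vertical axis, log scale) of each member with a value in 12 marker lists, with the highest member named and a dashed line at 1 FPKM. Genes listed at 0 are drawn at the bottom of the axis. The numbers at the top count the members at or above 1 FPKM among all members, from 9 of 14 for basophils to 0 of 13 for neutrophils.

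The 3 samples lay close to each other. Across the 10332 genes present, Pearson's r of log2(FPKM + 1) was 0.993 between replicates 1 and 2, 0.991 between 1 and 3, and 0.993 between 2 and 3. These values are across genes of single samples, genes are not independent replicates, and the wide range of levels raises them. The median SD of log2(FPKM + 1) between the 3 samples was 0.071, with 0.026 at the 10th and 0.17 at the 90th percentile of genes. The coefficient of variation (CV, the SD as a percentage of the mean) fell with the level of the gene up to 300 FPKM, from a median of 12.4% at 1 to 3 FPKM over 7.28% at 3 to 10, 4.98% at 10 to 30 and 3.91% at 30 to 100 to 3.19% at 100 to 300 FPKM. At 300 FPKM and above the median was 3.29%, and the 90th percentile was 9.77% against 6.92% at 100 to 300 FPKM. The 16 reference genes were all present. Among them Tbp was found at 6.68, 6.85 and 6.94 FPKM and Actb at 2177, 2119 and 2086 FPKM, while Hprt1 was found at 18.1, 26.0 and 28.1 FPKM, with replicate 1 below the others.

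A difference of more than 1.5-fold on the log2(FPKM + 1) scale separated replicates 1 and 2 for 108 genes (1.05% of the genes present), replicates 1 and 3 for 173 genes (1.67%) and replicates 2 and 3 for 149 genes (1.44%). In all, 259 genes (2.51%) passed it in at least 1 pair. Of the 170 mast cell list members present, 3 did so (1.76%). They were Mcpt10 (CV 61.6%), Mcpt1 (27.1%) and Fcgr2a (23.8%), each of which belongs to a family of related genes. Symbols that begin with LOC or RGD, given to loci without an established name, made up 8.58% of the genes present and 55.6% of those past 1.5-fold.

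The genes with the smallest and the widest spread were ranked among the 6314 with a mean of at least 10 FPKM. The smallest CV was that of Got2, a mitochondrial transaminase, at 182, 182 and 181 FPKM (CV 0.0662%). It was followed by Prpf4, the lymphoid factor Ikzf1, Wdr46, Pdcd6ip, the SNARE Vamp3, Glipr1, Sgpl1, the kinase Abl1 and Acot7, with a CV of at most 0.209%. The 10 widest were the loci LOC100362149, LOC100359951, LOC100912534, LOC103690067, LOC100360679, LOC100910177 and LOC100912008 together with Tprkb, Srm and Rpl9. Srm, the spermidine synthase, was measured at 100, 106 and 16.1 FPKM, low in replicate 3. Tprkb, a subunit of a tRNA-modifying complex, was measured at 15.2, 29.2 and 3.37 FPKM, with no 2 samples close together. LOC100360679, which RefSeq names Rps18l1, was measured at 196, 204 and 0 FPKM.

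A CV over 30% was found for 50 of the 6314 genes (0.792%), and replicate 3 was the sample farthest from the median in 41 of them. These 50 genes were unevenly distributed over classes of genes that were set after the values were seen. They included 18 of 28 copies of ribosomal protein genes (64.3%), that is, loci with a LOC or RGD symbol that RefSeq names as a pseudogene or further copy of a ribosomal protein gene with a value of its own, and 21 of 294 other LOC or RGD loci (7.14%). The loci that RefSeq names Rpl35al1 and Rpl35a-ps6 count among the latter because Rpl35a was listed without a value, and with them the copies would be 20 of 30 and the other loci 19 of 292. The 50 also included 4 of 85 ribosomal protein genes (4.71%) and 7 of 5907 remaining genes (0.119%). Among the 7 were Tprkb, Srm, Dpm3, Surf1 and Naglt1.

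**Figure D4:**
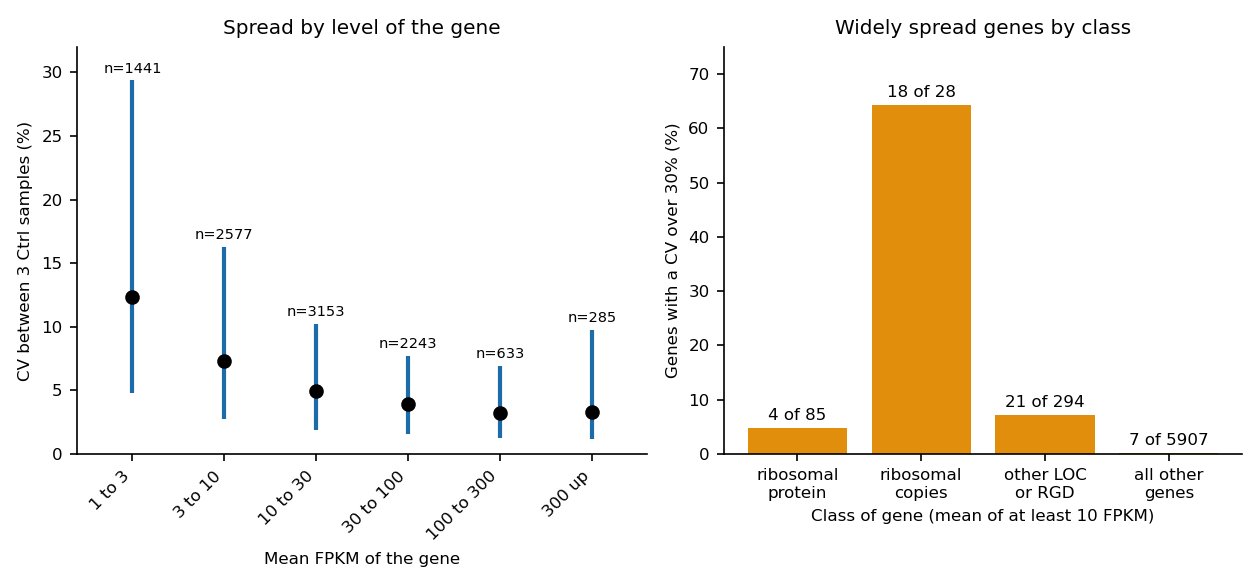
Left, CV between the 3 Ctrl samples (vertical axis, %) for genes grouped by mean FPKM, with a point at the median, a line from the 10th to the 90th percentile and the number of genes, with a median of 12.4% in the lowest class, 3.19% at 100 to 300 FPKM and 3.29% at 300 FPKM and above. Right, share of genes with a CV over 30% (vertical axis, %) in 4 classes of genes with a mean of at least 10 FPKM, highest for copies of ribosomal protein genes at 64.3%.

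The 5 ribosomal protein genes with the widest spread among those with copies varied less once their copies were added. Rpl9, a protein of the large subunit, was measured at 859, 595 and 146 FPKM in replicates 1 to 3 (CV 67.6%). Its copies, chiefly LOC100360449 (RefSeq name Rpl9-ps31), were together measured at 525, 790 and 1247 FPKM. The named gene was thus lowest where the copies were highest, and gene and copies together came to 1384, 1385 and 1392 FPKM (CV 0.331%). The same was seen for Rps20, a protein of the small subunit, which was measured at 1861, 1397 and 813 FPKM (CV 38.7%), with its copies at 1152, 1426 and 2210 FPKM and the sum at 3013, 2823 and 3022 FPKM (CV 3.81%). Rps26 went the other way, with the gene at 519, 545 and 907 FPKM, the copies at 1409, 1290 and 1055 FPKM and the sum at 1928, 1835 and 1961 FPKM (CV 3.43%). For Rpl38 the CV was 41.6% for the gene and 8.43% for the sum, and for Rps13 it was 21.1% and 5.41%. These 5 genes are all those of the 41 with copies whose own CV was over 20%, a limit set after the values were seen. The next widest changed less, with a CV of 19.2% for the gene and 19% for the sum in Rpl37, 15.8% and 15.7% in Rplp1, and 15% and 11.1% in Fau.

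Over the 41 ribosomal protein genes with copies, the median CV was 4.97% for the genes and 3.44% for the sums, and it was lower for the sum in 28 of 41. In the 17 genes whose copies held at least 5% of the sum, it was lower in 14, with a median of 9.60% for the genes and 3.81% for the sums. The ribosomal protein genes and these copies together held 26.2%, 26.6% and 25.7% of the summed FPKM in replicates 1 to 3. The copies alone held 1.07%, 1.18% and 1.57%, and 18 of the 28 copies with a mean of at least 10 FPKM were highest in replicate 3. With the loci of Rpl35a and 1 further locus whose gene had no value, the copies held 1.23%, 1.31% and 1.69%, and 19 of 30 were highest in replicate 3. Whether reads that fit a gene and its copies were divided differently between samples was not tested. In all, 28 genes with a mean of at least 1 FPKM had the same 3 values as another gene, such as Rps9 and Rps9l1 at 437, 457 and 449 FPKM each. They include LOC687780, the copy of Fau counted above. The level of single members of such pairs is uncertain.

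**Figure D5:**
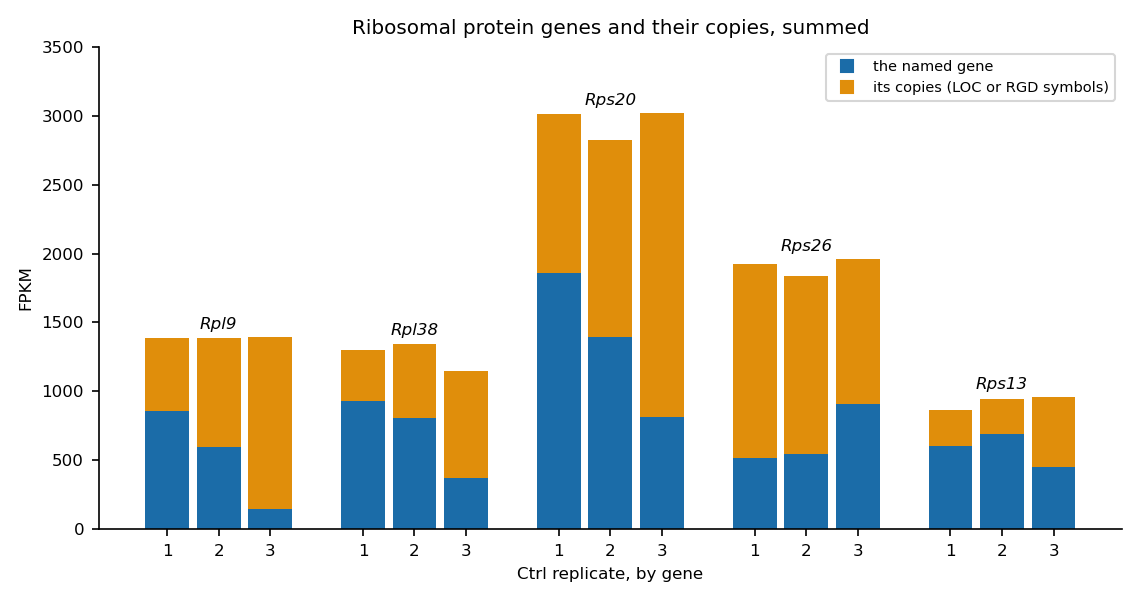
FPKM (vertical axis) of 5 ribosomal protein genes (lower part of each bar) and of their copies (upper part) in Ctrl replicates 1 to 3. The lower and upper parts shift against each other between replicates, while the whole bars differ little, for example 1384, 1385 and 1392 FPKM for Rpl9.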

How the data were processed

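The authors filtered reads with SOAPnuke. By the submitters' processing notes, HISAT2 2.0.4, Bowtie2 2.2.5, RSEM 1.2.12 and the genome build rn6 were used. The sequencer was a BGISEQ-500 by the methods of the paper, whereas the labels name Illumina library protocols. The authors deposited 1 normalized value per gene and sample, read here as FPKM, since the files name no unit. Strand use in counting is not given in the sources used here. The 3 Ctrl samples were joined by gene identifier in Python 3.11.15 (pandas 2.3.3). The mean, SD and CV were computed on FPKM as deposited, and the spread also on log2(FPKM + 1). No test was run, as 1 group was described, and files of other samples were not used. RefSeq names were matched for 16606 of 18006 genes. The members and gene lists were chosen with earlier results of these data known. The genes named are the 20 highest, the 20 highest outside ribosomal proteins and translation factors, up to 8 members of each mast cell list and those below 1 FPKM, and the 10 widest and 10 smallest CVs at a mean of at least 10 FPKM. For other cell types they are the highest and the defining members. Further list members, such as Lyn, Syk, Mitf, Fos and Tnf, were named for their role with their values known. The letters searched in promoters, the classes of widely spread genes and the sums with copies were chosen after the values were seen. Some genes that these rules name are not reported here.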

Additional observations from a re-analysis of the deposited data

How the results depend on the processing

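The number of genes present (10332) lay between 10327 and 10356 when 1 replicate was left out and was 12877 at a limit of 0.1 FPKM, 7979 at 5 FPKM and 10086 with at least 1 FPKM in every replicate. Scaling the samples to equal sums or by median ratios moved it to 10330 and 10328. With 1 replicate left out, the share held by the 10 highest genes was 7.03% to 7.21% and that of the 100 highest 33.1% to 33.7%. Scaling a sample cannot change a share of its own sum, so the scalings are no check of these shares. The median SD of log2 values (0.071) was 0.078 with a pseudocount of 0.1, 0.059 with no filter, 0.060 for means of at least 10 FPKM, 0.069 without ribosomal protein genes and LOC or RGD symbols, and 0.057 to 0.060 with 1 replicate left out. In that last setting each SD rests on 2 samples, and the median of such SDs is lower even at equal spread. The 259 genes past 1.5-fold became 502 with a pseudocount of 0.1, 395 with no filter, 91 at 2-fold, 110 without ribosomal protein genes and LOC or RGD symbols, and 105 (without replicate 3) to 175 (without replicate 2) with 1 replicate left out, and 154 without replicate 1, when only 1 pair is compared. The setting without those genes was chosen after seeing the data. The 227 list members present numbered 271 at 0.1 FPKM and 189 at 5 FPKM, and at these limits 9 and 4 of the 24 list counts moved by over 1.5 times, while leaving out a replicate or scaling moved none by that much. All of the 20 highest genes were the same by the median as by the mean. Shares without mitochondrially encoded genes were not run, since no gene with a value matched that family. No paired analysis was possible because 1 group was described and the results come from no test. Without read counts, depth sets no stated limit, and values under 1 FPKM rest on few decimals.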
